A study of Mus musculus with 8 samples.

Results

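The 9 genes Cd79a, Cd79b, Ms4a1, Pax5, Cd22, Cr2, Fcer2a, Ebf1 and Blk, chosen by name for their place in the B cell receptor complex and in B cell identity, were followed among the 17921 genes counted in cells of transplanted mouse lungs. A B cell receptor is a membrane immunoglobulin that binds antigen, held together with the CD79A and CD79B chains, whose tails are phosphorylated by Src family kinases when antigen is bound. Coreceptors on the same membrane raise or lower that signal, and the transcription factors EBF1 and PAX5 keep the whole program switched on. When a B cell becomes a plasma cell (PC), which secretes antibody, much of this program is switched off. In the lung, B cells circulate through the tissue and gather in lymphoid aggregates around airways in chronic rejection.

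Left lungs were transplanted orthotopically into male C57BL/6 (B6) recipients without immunosuppression, and the whole graft was dissociated 1 month later. In 5 mice the donor was also B6 (B6→B6). In 3 mice the donor was of the C57BL/6 line Tg(HLA-A2.1)1Enge/J, which carries a human HLA-A2 transgene, so that the graft differed from its host by 1 human transplantation antigen (HLA→B6). Each library came from 1 mouse and counted unique molecular identifiers (UMIs) at the 3′ ends of transcripts. Host and graft cells were not separated, and the B cells of a graft can belong to either.

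The 8 libraries held 20778 cells, with 868 to 6544 cells, 1669076 to 12445769 UMIs and a median of 1356 to 1948 UMIs per cell in each. The deposited annotation called 2286 cells B cells, between 58 and 408 in a mouse, and 172 cells PCs, of which 121 came from HLA→B6 mouse 1 and 27 from HLA→B6 mouse 2. It also divided the B lineage into clusters 0 (1895 cells), 1 (210 cells), 2 (172 cells, 164 of them PCs) and 3 (157 cells). PCs were named by the study from genes that include Sdc1 and Xbp1, so their levels describe the label and do not test it. Sdc1, which encodes the PC antigen CD138, stood at 4.39 CPM (UMIs of a gene per 1000000 UMIs of the summed cells) in B cells and at 112 CPM in PCs, and Xbp1, a transcription factor of secretory cells, at 78.8 CPM and 1159 CPM. B6→B6 mice 1, 2 and 3 and HLA→B6 mouse 2 shared more cell barcodes than the others in 5 of 28 pairs of libraries. Over all libraries, 64 B cells and 19 PCs had a barcode that another library also held, and leaving such cells out called none of the 9 genes in B cells.

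The 2 chains that signal for the receptor are encoded by Cd79a (chr7:24897381-24902197, plus strand) and Cd79b (chr11:106311341-106314762, minus strand). At the surface, Ms4a1 (chr19:11249675-11266241, minus) encodes CD20, Cd22 (chr7:30865402-30880342, minus) the inhibitory lectin CD22, Cr2 (chr1:195136811-195176716, minus) the complement receptors CD21 and CD35, and Fcer2a (chr8:3681737-3694175, minus) the low affinity IgE receptor CD23. Pax5 (chr4:44524757-44710487, minus) and Ebf1 (chr11:44617317-45008091, plus) encode the transcription factors. Blk (chr14:63372836-63417037, minus) encodes a Src family kinase of B cells. The positions are whole genes, exons and introns together, in mouse build GRCm38 (mm10) of GENCODE vM21.

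RefSeq promoters of GRCm38.p6 were at hand for 6 of the 9 genes, with 9 start sites among them. The stretches shown are those of Cr2 and Fcer2a, the pair whose levels lay closest together over the sums of cells described further on, and a window from Cd22, the gene of the list with the largest share of its UMIs outside the B lineage. Capitals in the Cr2 stretch (chr1:195176720-195176969, minus strand) mark the E-box CAGGTG, read here as its reverse complement, and capitals in the Cd22 window (chr7:30879058-30879087, minus strand) mark a palindrome that EBF1 can bind, TCCC and GGGA with any 2 bases between. The Fcer2a stretch (chr8:3694176-3694424, minus strand) is printed to be read beside that of Cr2.
Cr2: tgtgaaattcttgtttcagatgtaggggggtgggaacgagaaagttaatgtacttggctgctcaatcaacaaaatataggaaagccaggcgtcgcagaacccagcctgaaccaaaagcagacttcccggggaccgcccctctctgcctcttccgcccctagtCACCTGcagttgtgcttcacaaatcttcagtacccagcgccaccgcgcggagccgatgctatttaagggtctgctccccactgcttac
Fcer2a: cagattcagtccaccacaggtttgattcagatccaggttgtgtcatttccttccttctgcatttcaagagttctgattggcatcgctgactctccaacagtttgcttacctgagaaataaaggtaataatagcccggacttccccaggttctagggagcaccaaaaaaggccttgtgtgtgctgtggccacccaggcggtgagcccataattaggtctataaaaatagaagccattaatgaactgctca
Cd22: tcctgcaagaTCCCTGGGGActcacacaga

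Both strands of the 250 bases before each start site were searched for 3 motifs. The EBF1 palindrome lay in 1 of the 9 promoters, that of Cd22, and in 256 of 32851 promoters searched (0.779%). CAGGTG lay in 4 of the 9 promoters, those of Cd22, Cd79a, Cr2 and another start site of Fcer2a, and in 5657 of those searched (17.2%). The octamer ATTTGCAT, found in immunoglobulin promoters, lay in none of the 9 promoters and in 526 of those searched (1.60%). The E-box and the palindrome share no letters in Cd22, and a match of letters is not a bound site.

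All 9 genes were highest in B cells among the 11 annotated cell types, and they differed in what remained outside. B cells held 91.8% of the 14344 Cd79a UMIs of the series, 89.0% of 10589 for Cd79b, 95.6% of 5311 for Ms4a1, 93.6% of 605 for Pax5, 92.1% of 484 for Cr2, 95.1% of 1031 for Fcer2a and 93.0% of 6335 for Ebf1. For Cd22 it was 61.0% of 1327 UMIs, with a further 30.4% in alveolar macrophages (AMs), and for Blk 78.9% of 858 UMIs, with 12.4% in T cells. The annotation was drawn from the same counts, so these levels describe the types and carry no test. Since each captured transcript gives 1 UMI at its 3′ end, a level in CPM does not scale with gene length, although capture can differ between genes and levels are compared here within a gene.

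**Figure D1:**
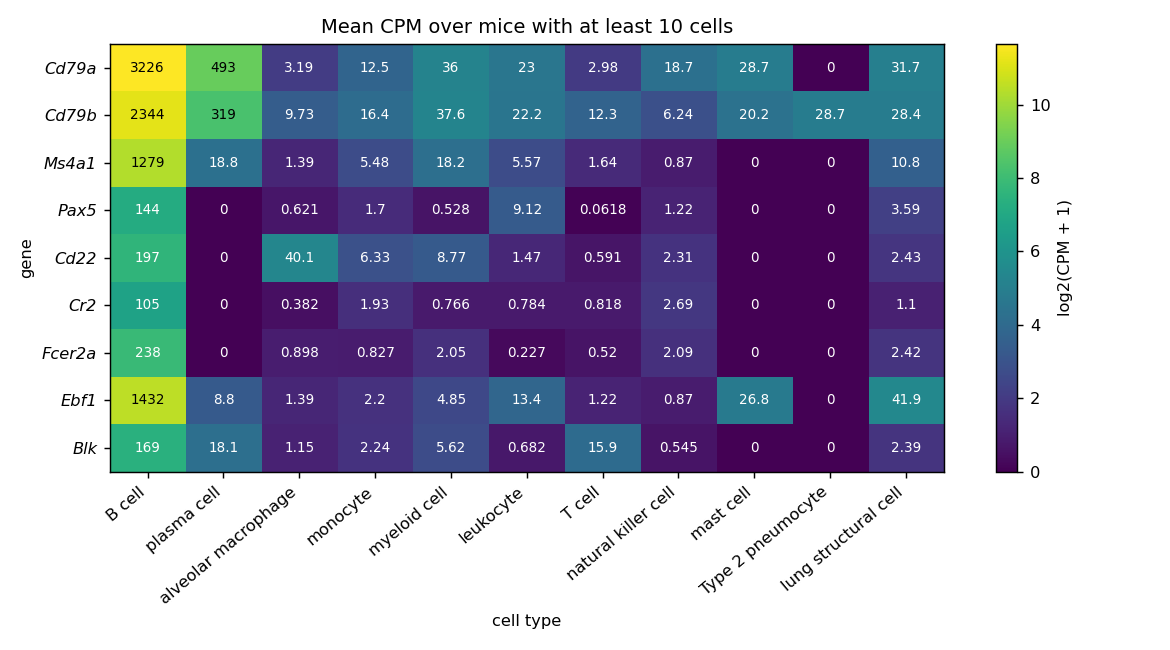
Mean CPM of the 9 genes in 11 annotated cell types, averaged over the mice with at least 10 cells of a type, with colour on a log2(CPM + 1) scale and the mean printed in each cell. B cells are the highest column for each gene, with Cd79a at 3226 CPM, and the other visible cells include Cd79a and Cd79b in PCs, Cd22 in AMs at 40.1 CPM and Ebf1 in structural cells at 41.9 CPM.

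Within single B cells the signalling chains were found in nearly all cells and the others in fewer. With each cell thinned to 1000 UMIs, the share of B cells with a UMI was 94.2% for Cd79a, 86.1% for Cd79b, 72.2% for Ebf1 and 64.2% for Ms4a1. It was 21.5% for Fcer2a, 17.2% for Cd22, 14.0% for Blk, 12.7% for Pax5 and 9.95% for Cr2. T cells, which should lack most of these genes and were of similar depth (median 1648 UMIs against 1598 in B cells), had shares from 0.0171% for Pax5 to 0.938% for Blk, so every one of the 9 genes lay above that background in B cells. A B cell held UMIs of 5 of the 9 genes at the median, 2 B cells held none and 6 held all 9. Cd79a, Cd79b and Ms4a1 were found together in 1668 B cells (73.0%) and in 13 PCs (7.56%). Among the 18320 cells annotated as neither, 37 held all 3, and 21 of those lay in a cluster of 31 structural cells that the annotation of structural cells itself labels B cells.

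Levels of the 9 genes varied together over 69 sums of cells (1 for each mouse and cell population with enough cells), but not equally. Pearson's r of log2(CPM + 1) between 2 of the genes was highest for Cr2 and Fcer2a at 0.919 and lowest for Cd22 and Blk at 0.473. Among all genes outside the list, the nearest to Cd79a, Cd79b and Cr2 was Fcmr, which encodes an IgM receptor, at 0.858, 0.865 and 0.868. Vpreb3 was nearest to Ms4a1 (0.903) and to Pax5, Chst3 to Fcer2a (0.868), Ighd to Ebf1 (0.806), Ccr6 to Blk (0.822) and Kynu to Cd22 (0.753). The sums share libraries and cell types, so these values are descriptive.

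Between B6→B6 and HLA→B6 grafts, the first question was whether the B cells kept the receptor program. None of the 9 genes passed edgeR's quasi-likelihood test with Benjamini-Hochberg adjustment in B cells summed by mouse, and none had an unadjusted p under 0.05 or was called by DESeq2, where 0.117% of the 6001 genes tested were called by edgeR, 0.0334% by DESeq2 and 4.72% had an unadjusted p under 0.05. In 7 of the 9 the estimate lay below 0. Their median log2 fold change of HLA→B6 against B6→B6 was -0.13, and that of all genes was 0.01.

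The signalling chains varied least between mice. In B cells Cd79a stood at 3211, 3362, 3366, 3254 and 3384 CPM in B6→B6 mice 1 to 5 and at 2917, 2984 and 3328 CPM in HLA→B6 mice 1 to 3. HLA→B6 mice 1 and 2 were below every B6→B6 mouse, and HLA→B6 mouse 3 was among them. The means were 3315 ± 77.7 (SD, n = 5) and 3076 ± 220 (SD, n = 3), with a log2 fold change of -0.09 (SE 0.12, edgeR adjusted p = 0.9999). Cd79b stood at 2636, 2644, 2383, 2068 and 2456 CPM and at 2085, 1946 and 2536 CPM, with overlapping groups (log2 fold change -0.13, SE 0.14).

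Of the surface genes, CD20 and CD23 had the lowest unadjusted p of the list. Ms4a1 was measured at 1651, 1540, 1390, 1084 and 1272 CPM in B6→B6 mice 1 to 5 and at 1269, 913 and 1115 CPM in HLA→B6 mice 1 to 3. The groups overlapped through B6→B6 mice 4 and 5, and the log2 fold change was -0.31 (SE 0.15, unadjusted p = 0.0582 by edgeR). Fcer2a was measured at 205, 255, 311, 245 and 293 CPM and at 169, 151 and 278 CPM. Again HLA→B6 mice 1 and 2 were below all B6→B6 mice and HLA→B6 mouse 3 was not. The log2 fold change of Fcer2a was -0.43 (SE 0.21, unadjusted p = 0.0609 by edgeR), and an exact two-sided permutation test of log2 CPM gave p = 0.143, where 0.0357 is the smallest p that 5 mice against 3 allow. Without HLA→B6 mouse 3 it was -0.76 (edgeR adjusted p = 0.205). Both genes differed more within the 4 libraries that share barcodes (log2 difference -0.74 for Fcer2a and -0.74 for Ms4a1) than within the other 4 (-0.30 and 0.02). HLA→B6 mouse 2 was the only HLA→B6 mouse among those that share barcodes, so the difference there rests on it alone. Whether the shared barcodes played a part was not tested.

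Cr2 ranged from 61.6 to 158 CPM in B6→B6 mice and from 80.2 to 103 CPM in HLA→B6 mice, so that the range of the second group lay inside that of the first. Cd22, the inhibitory receptor, had nearly equal means in B cells of 196 ± 55.0 (SD, n = 5) and 198 ± 29.3 CPM (SD, n = 3). For the transcription factors, Pax5 was 174, 158, 139, 139 and 134 CPM in B6→B6 mice and 116, 117 and 175 CPM in HLA→B6 mice. Ebf1 was 1272, 1339, 1335, 1442 and 1674 CPM and 1221, 1308 and 1863 CPM, and the mouse with the highest level of either factor was HLA→B6 mouse 3. That mouse gave 85 cells of cluster 3, described further on, in which both factors stood above cluster 0. In cluster 0 alone the highest Ebf1 was 1764 CPM, in HLA→B6 mouse 2, and the highest Pax5 was 177 CPM, in a B6→B6 mouse. The part of cluster 3 in the levels over all B cells was not tested. Blk, the kinase, was 215, 234, 145, 121 and 189 CPM against 174, 148 and 128 CPM, within the B6→B6 range. The exact permutation p for the 9 genes lay between 0.107 for Cd79a and 0.893 for Cd22 and Ebf1, and in none of the 9 did the groups stand apart.

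**Figure D2:**
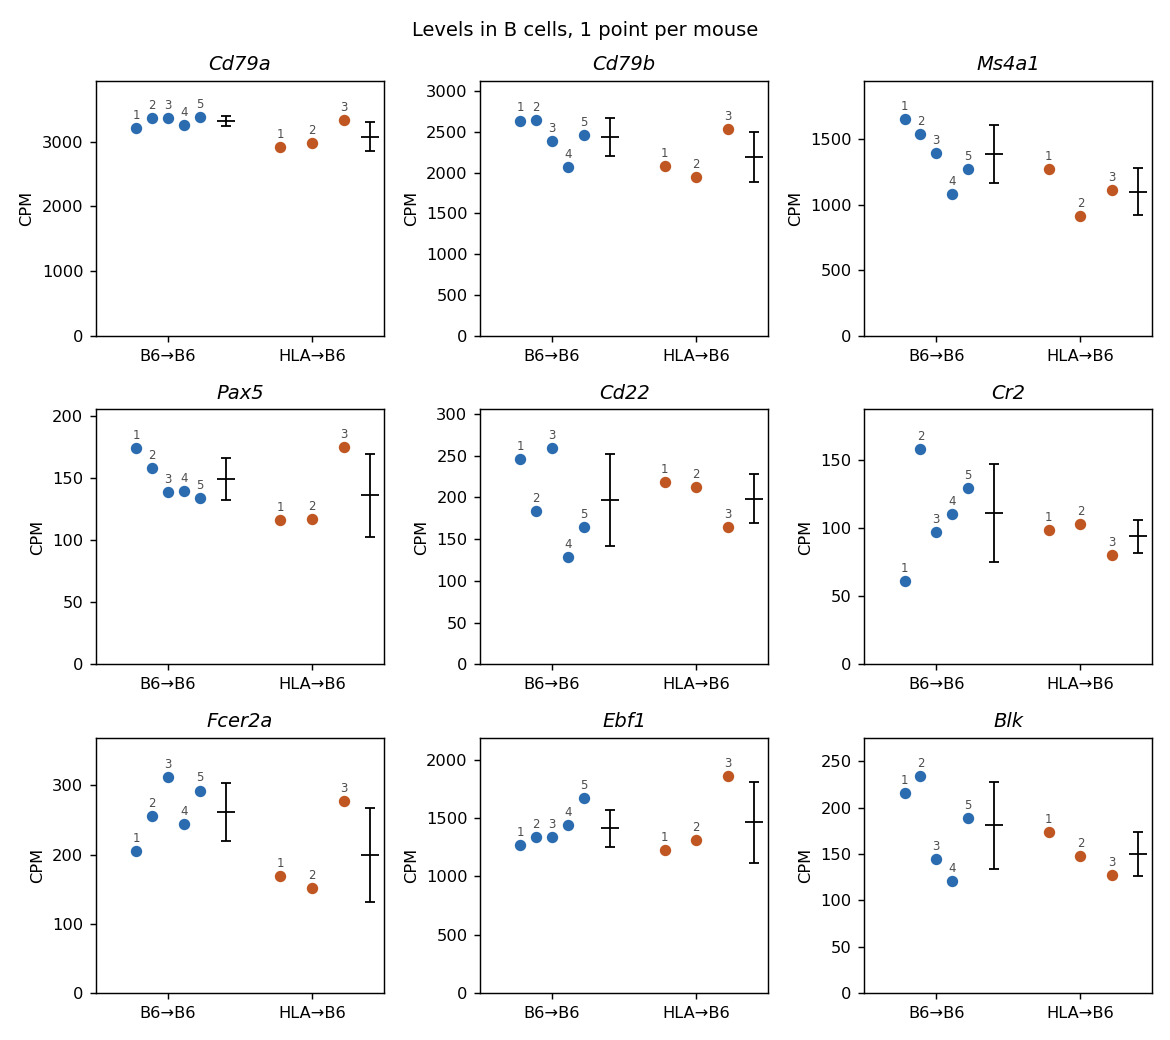
CPM of each of the 9 genes in B cells, 1 point for each mouse, for B6→B6 (n = 5) and HLA→B6 (n = 3), with bars for the mean and SD on axes that start at 0. The groups overlap in each panel, and Fcer2a shows 2 HLA→B6 mice at 169 and 151 CPM below all B6→B6 mice and the third at 278 CPM among them.

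Wider lists of genes of the same pathway gave no call in B cells by edgeR or DESeq2. Of genes that carry the receptor signal, 17 were tested (median log2 fold change -0.07), with Cd37 at 1246 and 1176 CPM and Bank1 at 444 and 455 CPM in B6→B6 and HLA→B6. Of inhibitory receptors and phosphatases, 8 were tested (median 0.02), with Ptpn6 at 550 and 491 CPM and Siglecg at 398 CPM in both. Of B cell transcription factors, 19 were tested (median -0.14), 1 with an unadjusted p under 0.05. Klf2, which guides lymphocyte homing, was 2348 against 1750 CPM (log2 fold change -0.40, unadjusted p = 0.0771 by edgeR), and Mef2c was 653 against 595 CPM. Of follicular and marginal zone surface genes 15 were tested (median -0.22), 3 with an unadjusted p under 0.05, and Ltb was 1301 against 1397 CPM and H2-Ob 584 against 622 CPM. Of the chains that make up the naive receptor (Ighm, Ighd and the light chains) 6 were tested (median -0.03), with Igkc at 16349 and 16691 CPM and Ighm at 4718 and 4729 CPM. Switched heavy chains, which the list did not hold, were among the 7 genes called by edgeR. Igha (log2 fold change 3.52, edgeR adjusted p = 0.0396), Ighg2b (4.08, edgeR adjusted p = 0.0138) and Ighg3 (5.92, edgeR adjusted p = 0.0186) were higher in HLA→B6. So was Jchain, a PC marker (5.92, edgeR adjusted p = 0.0186). The heavy chains and Jchain are named after their values were seen, and DESeq2 called none of them. Of the cells labelled B cells, 8 lay in cluster 2, which holds most PCs, and their part in these calls was not tested.

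The clusters of B cells separated the 9 genes into a group that was lower in cluster 1 and a group that was not. Pooled over mice, Fcer2a was 31.4 CPM in cluster 1 and 285 CPM in cluster 0, which is 11.0% of it (95% Poisson interval of the cluster 1 count 7.07 to 16.4). Cr2 was 24.9 and 126 CPM (19.8%, interval 11.9 to 30.9), and Ebf1 605 and 1572 CPM (38.5%, interval 35.0 to 42.1). The receptor CD23, which marks follicular B cells, the coreceptor CD21, which is highest on marginal zone B cells, and 1 of the 2 transcription factors thus had levels under 40% of cluster 0.

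Pax5 was at 54.4% of cluster 0, Cd79b at 68.1%, Cd79a at 71.9% and Cd22 at 80.2%. Ms4a1 was 1195 against 1240 CPM (96.3%, interval 90.2 to 103) and Blk 190 against 158 CPM (120%, interval 101 to 141). Cells of cluster 1 had more UMIs (median 2976 against 1584). Thinned to 1000 UMIs, 3.19% of cluster 1 cells and 23.8% of cluster 0 cells held Fcer2a, 2.44% and 10.9% held Cr2, 45.7% and 75.4% Ebf1, and 17.2% and 13.6% Blk. Unthinned, these shares were 8.10% and 34.0%, 7.62% and 17.4%, 78.6% and 87.1%, and 43.3% and 21.2%. The clusters were made from these genes among others, so these are descriptions, and the intervals cover counting error only.

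By mouse, the clusters could be compared in the 4 mice with at least 10 cells of cluster 1 (20, 22, 74 and 70 cells in B6→B6 mice 2 and 3 and HLA→B6 mice 1 and 2). Fcer2a was 293, 345, 255 and 248 CPM in their cluster 0 cells and 83.8, 86.3, 12.0 and 12.0 CPM in their cluster 1 cells. Cr2 was 193, 110, 143 and 142 CPM in cluster 0 and 23.9, 0, 16.0 and 35.9 CPM in cluster 1. In the B6→B6 mice Cr2 was thus the lower of these genes relative to cluster 0, and in the HLA→B6 mice, which gave most cells of the pool, Fcer2a was. Ebf1 was 1460, 1401, 1554 and 1764 CPM in cluster 0 and 778, 777, 521 and 583 CPM in cluster 1, a mean log2 ratio of -1.23 (SD 0.41, n = 4). Cd79a, Cd79b, Cr2, Fcer2a and Ebf1 were lower in cluster 1 in 4 of 4 mice, Pax5 and Cd22 in 3 of 4, and Ms4a1 in 2 of 4, whereas Blk was higher in 4 of 4, from 236, 140, 158 and 142 CPM to 240, 202, 184 and 160 CPM.

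**Figure D3:**
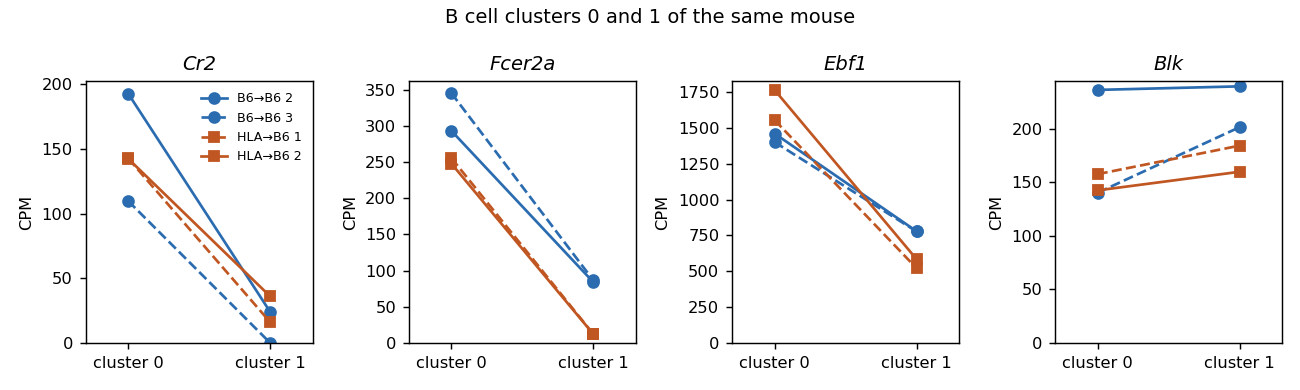
CPM of Cr2, Fcer2a, Ebf1 and Blk in cluster 0 and cluster 1 of the same mouse, with a line for each of the 4 mice that had at least 10 cells of cluster 1. The lines fall for Cr2, Fcer2a and Ebf1 in 4 of 4 mice and rise for Blk in 4 of 4.

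Among other genes of the pathway, 13 of 20 transcription factors, 13 of 18 signalling genes, 5 of 10 inhibitory genes, 10 of 16 follicular and marginal zone genes and 3 of 6 immunoglobulin chains were lower in cluster 1 than in cluster 0. No share over all genes is given beside these counts, so they do not set the lists apart from other genes. Ighd, the chain of IgD on naive cells, was at 895 CPM in cluster 0 and 170 CPM in cluster 1. Cluster 1 made up 8.62%, 8.33%, 5.68%, 3.38% and 1.68% of the B cells of B6→B6 mice 1 to 5 and 17.4%, 21.6% and 1.72% of those of HLA→B6 mice 1 to 3. The mice with the largest share of cluster 1 were thus those with the lowest Fcer2a over all B cells.

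When the conditions were compared within a cluster, the estimate for Fcer2a in cluster 0 lay closer to 0 than that over all B cells, a difference that was not tested. Fcer2a there was 228, 293, 345, 274 and 302 CPM in B6→B6 mice and 255, 248 and 259 CPM in HLA→B6 mice, with overlapping groups (log2 fold change -0.20, SE 0.17, unadjusted p = 0.247 by edgeR). None of the 9 genes was called in cluster 0 by edgeR or DESeq2 and none had an unadjusted p under 0.05, where 0% of 4871 genes were called by edgeR, 0.0205% by DESeq2 and 3.16% had an unadjusted p under 0.05. The median over the 9 genes was -0.11.

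In cluster 1, where B6→B6 mice 2 and 3 were compared with HLA→B6 mice 1 and 2, the estimates lay farther from 0, and the difference between the clusters was not tested. Cluster 1 also holds 4 cells labelled PCs. Of its 74 cells in HLA→B6 mouse 1, 71 were labelled B cells, and of its 22 in B6→B6 mouse 3, 21 were. The part of the cells labelled PCs in the estimates was not tested. None of the 9 genes was called by edgeR (0% of 2206 genes tested) or by DESeq2 (0.136%), but 4 had an unadjusted p under 0.05, which 9.97% of all genes tested had. Cr2, with 2, 0, 4 and 9 UMIs, was too low to test, and the other 8 estimates were all below 0, with a median of -0.48 against -0.01 over all genes. Exact permutation of 2 mice against 2 cannot reach 0.05.

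Fcer2a rested on 7 and 6 UMIs in the B6→B6 mice and on 3 and 3 UMIs in the larger HLA→B6 sums (log2 fold change -2.72, SE 0.58, edgeR adjusted p = 0.132). Ms4a1 was 1688 and 2245 CPM in B6→B6 mice and 1061 and 747 CPM in HLA→B6 mice, with no overlap (log2 fold change -1.09, SE 0.25, edgeR adjusted p = 0.169). It passed without HLA→B6 mouse 1 (-1.35, edgeR adjusted p = 0.0337) and with the libraries that share barcodes as a block (-1.37, edgeR adjusted p = 0.0230). Both fits rest on B6→B6 mice 2 and 3 against HLA→B6 mouse 2 alone, since HLA→B6 mouse 1 was the only library of the other block, and they assume that a lone mouse varies like the rest. In the mice with fewer than 10 cells of cluster 1, Ms4a1 was 2492, 950 and 1485 CPM in B6→B6 mice 1, 4 and 5 and 1405 CPM in HLA→B6 mouse 3, so that B6→B6 mouse 4 lay inside the HLA→B6 range.

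Pax5 was 132 and 144 CPM against 64.1 and 67.9 CPM in cluster 1 (log2 fold change -1.02, edgeR adjusted p = 0.425), and Cd79b 2083 and 2159 CPM against 1662 and 1298 CPM (-0.49, edgeR adjusted p = 0.496). The summed level of the PC marker list in the same cells, with 6 of 6 genes measured, was 72.0 to 95.8 CPM in the B6→B6 mice and 471 to 1085 CPM in the HLA→B6 mice. Pooled over the cluster 1 cells of all mice, Jchain was the highest gene of the list at 364 CPM, found in 8.10% of cells. Xbp1 was at 158 CPM, Sdc1 at 5.23 CPM and Tnfrsf17 at 0 CPM. These single genes are not given by group. The part of the PC marker list in the estimates was not tested. In the wider lists no gene was called in cluster 1 by edgeR, with 15 signalling genes, 6 inhibitory genes, 15 transcription factors, 12 follicular and marginal zone genes and 6 chains tested. Klf2 was 2303 against 896 CPM on average (log2 fold change -1.33, edgeR adjusted p = 0.132), and it was 1 of 3 genes called there by DESeq2 (adjusted p = 0.0199).

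In cluster 3, pooled over mice, 8 of the 9 genes stood above cluster 0 with intervals clear of 100%. Ebf1 was at 247% of cluster 0 (interval 222 to 275), Cd79b at 200%, Pax5 at 197%, Cr2 at 175%, Cd22 at 172%, Cd79a at 164%, Fcer2a at 162% and Ms4a1 at 135%. Blk, at 102% (interval 55.9 to 172), was the exception. In the 3 mice with at least 10 such cells, Cd79a, Cd79b, Pax5, Cr2 and Ebf1 were higher than in cluster 0 in 3 of 3, whereas Ms4a1, Cd22 and Fcer2a were lower in 1 of 3 and Blk in 2 of 3, and Fcer2a was at 0 CPM in the 10 cells of HLA→B6 mouse 1. These 157 cells had a median of 533 UMIs, 6.49% of their UMIs came from ribosomal protein genes against 30.3% in cluster 0, and 10.9% from mitochondrial genes against 2.56%. The hemoglobin gene Hbb-bs stood at 1527 CPM against 43.3 CPM. HLA→B6 mouse 3 gave 85 of these cells and B6→B6 mouse 5 gave 38. Genes of the wider lists lay on both sides of cluster 0, such as Cd37 at 1643 CPM in cluster 3 against 1255 CPM in cluster 0. Ptpn6 was at 278 against 524 CPM. No share over all genes is given, so the count of 8 does not set the 9 genes apart from other genes. The part of RNA quality in the levels was not tested.

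**Figure D4:**
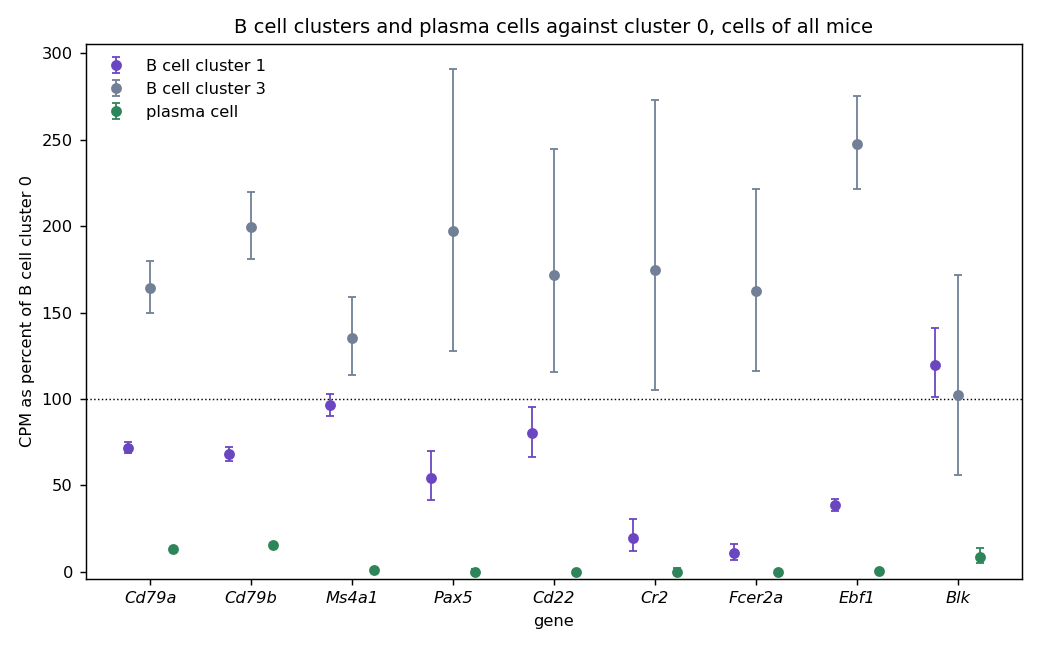
Pooled CPM of the 9 genes in cluster 1, cluster 3 and PCs as percent of the pooled CPM in cluster 0 (dotted line at 100%), with 95% Poisson intervals of the count in the numerator. In the pool, cluster 1 is lowest for Fcer2a (11.0%) and Cr2 (19.8%), an order that differs between mice, and highest for Blk (120%). The estimates for cluster 3 lie above 100% for all 9 genes, with an interval that spans 100% for Blk, and Cd79a in PCs is at 13.0%.

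PCs kept RNA of the 2 signalling chains, less of Blk, and little or none of the other 6 genes. Cd79a was 435 CPM in PCs and 3210 CPM in B cells, 7.38-fold lower, and Cd79b 372 and 2298 CPM, 6.17-fold lower. Immunoglobulin genes took 69.2% of PC UMIs and 2.63% of B cell UMIs. With those genes out of the totals the differences were 2.34-fold and 1.95-fold, and a PC held 3.49 Cd79a UMIs on average where a B cell held 5.76. Pax5, Cd22, Cr2 and Fcer2a had 0 UMIs over all 172 cells labelled PCs. With a floor of 3 counts over all PCs, they were at least 63.5-fold, 90.7-fold, 50.0-fold and 110-fold lower than in B cells, and at least 20.1-fold, 28.7-fold, 15.8-fold and 34.8-fold lower without immunoglobulin genes. Cluster 2, which holds 164 of the PCs and 8 cells labelled B cells, had 2 UMIs of Pax5, 2 of Cd22, 0 of Cr2 and 1 of Fcer2a. Ebf1 had 30 UMIs there (21.9 CPM) and Ms4a1 34 UMIs (24.8 CPM).

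Ebf1, with 5 UMIs, was 396-fold lower in PCs, Ms4a1 107-fold lower and Blk 12.0-fold lower. Without immunoglobulin genes these were 126-fold, 33.8-fold and 3.80-fold, so that Blk, from 19 UMIs, lay nearer to the chains than to the other genes. The transcription factor pair and the surface receptors were thus near or at 0 where the chains were still counted. Only HLA→B6 mice 1 and 2 had 10 or more PCs, with Cd79a at 411 and 575 CPM and Cd79b at 413 and 225 CPM, and no comparison of PCs between the groups was made. Of the wider lists, 17 of 20 transcription factors, 18 of 18 signalling genes, 10 of 10 inhibitory genes, 15 of 16 follicular and marginal zone genes and 2 of 6 immunoglobulin chains were lower in PCs than in cluster 0. Without immunoglobulin genes in the totals the first 4 counts were 14, 16, 8 and 13. Of all 14559 other genes with a UMI in either population, 85.5% were lower in PCs, and 58.9% without immunoglobulin genes in the totals.

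Outside the B lineage, Cd22 in AMs, Blk in T cells and Ebf1 in structural cells were followed by mouse, in comparisons that were not planned. Also tested were Cd79b in T cells (log2 fold change -0.70) and Cd79a (-0.83), Cd79b (-0.62) and Ms4a1 (-1.26) in structural cells. None of these was called by edgeR. Cd22 was higher in AMs of HLA→B6 grafts. It stood at 26.4, 35.5, 20.3, 29.2 and 32.7 CPM in B6→B6 mice 1 to 5 and at 47.6, 53.6 and 75.5 CPM in HLA→B6 mice 1 to 3, from 8 to 65 UMIs and from 27 to 197 UMIs. All HLA→B6 mice lay above all B6→B6 mice. The means were 28.8 ± 5.86 (SD, n = 5) and 58.9 ± 14.7 CPM (SD, n = 3), with a log2 fold change of 1.19 (SE 0.24, edgeR adjusted p = 0.0127). In AMs 12.3% of the 5798 genes tested were called by edgeR, 6.36% as higher, and 12.2% by DESeq2, so calls there were common.

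The exact permutation p for Cd22 in AMs was 0.0357, the smallest possible, and 0.429 after adjustment over 21 such tests. Over the alternatives its edgeR adjusted p ran from 0.00295 to 0.0661. It missed the threshold without HLA→B6 mouse 2 (1.19, adjusted p = 0.0510) and with a replicate block (1.28, adjusted p = 0.0661). Within the 4 libraries that share barcodes, where HLA→B6 mouse 2 was the only HLA→B6 mouse, the log2 difference was 0.98. Within the other 4 it was 0.93. The share of AMs with Cd22, thinned to 1000 UMIs, was 2.80%, 4.23%, 1.83%, 2.64% and 2.61% in B6→B6 mice and 4.91%, 4.11% and 6.97% in HLA→B6 mice, so that B6→B6 mouse 2 reached into the HLA→B6 range. Unthinned means were 6.55 ± 2.82% (SD, n = 5) and 18.5 ± 6.97% (SD, n = 3). The difference between the change in AMs and that in B cells was 1.03 on the log2 scale (SE 0.36, edgeR adjusted p = 0.197, where 0.94% of genes were called).

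AMs held few B cell transcripts, with or without Cd22. The B cell marker list, with 5 of 5 genes measured, summed to 4.95 to 30.5 CPM in AMs of B6→B6 mice and to 2.99 to 32.7 CPM in those of HLA→B6 mice. Of 313 AMs with a Cd22 UMI, 0.639% held Cd79a, against 0.413% of the other AMs, and 100% held the macrophage gene Lyz2. The AMs with Cd22 were deeper, with a median of 6557 against 2618 UMIs. The AMs of the 2 groups differed widely in other genes. Chil3 was 5854 to 8098 CPM in B6→B6 and 247 to 3346 CPM in HLA→B6, Marco 109 to 239 and 4.08 to 26.3 CPM, and Siglecf 25.1 to 77.9 and 5.72 to 25.2 CPM, all genes of resident AMs. Lyz2 was 11551 to 23294 and 39332 to 42563 CPM, and Cd68 380 to 689 and 796 to 1390 CPM. The monocyte and macrophage list, with 7 of 7 genes measured, summed to 22192 to 33281 and 44611 to 46320 CPM, and the median depth of an AM ran from 803 to 3837 UMIs in B6→B6 mice and from 898 to 7144 UMIs in HLA→B6 mice. The part of the makeup and depth of the AMs in the Cd22 difference was not tested. In monocytes Cd22 was 0 to 7.45 CPM in B6→B6 and 9.43 to 20.3 CPM in HLA→B6.

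Genes of the wider lists were called in AMs in both directions, where 12.3% of all 5798 genes tested were called by edgeR and 6.36% as higher. The counts below were not tested against those shares. Of 15 signalling genes tested there 2 rose and 1 fell. Blnk (log2 fold change 2.88, edgeR adjusted p = 0.0219) and Prkcb (2.67, edgeR adjusted p = 0.00693) were those that rose. Of 5 inhibitory genes, Fcgr2b, the inhibitory IgG receptor, rose from 160 to 323 CPM on average (1.24, edgeR adjusted p = 0.00979). Of 8 transcription factors Irf8 rose (1.23) and Ikzf1 fell (-0.76), and of 3 follicular and marginal zone genes Cd24a fell (-2.27). The 1 immunoglobulin chain tested was not called.

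Blk in T cells rested on few cells. It stood at 14.3, 61.5, 16.3, 5.94 and 10.7 CPM in B6→B6 mice 1 to 5 and at 8.98, 0.850 and 8.48 CPM in HLA→B6 mice 1 to 3, with overlapping groups and B6→B6 mouse 2 far above the rest. The log2 fold change was -2.07 (SE 0.84, edgeR adjusted p = 0.600), and 0.0698% of 7164 genes were called in T cells by edgeR and 0.518% by DESeq2. The exact permutation p was 0.143. Within the 4 libraries that share barcodes the log2 difference was -3.78, which rests on HLA→B6 mouse 2 alone, with 2 Blk UMIs in its T cells. Within the other 4 it was 0.11.

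Of the 58 T cells with a Blk UMI, 47 (81.0%) held Trdc, Tcrg-C1 or Cd163l1, genes of γδ T cells. Trdc, the constant region of the T cell receptor δ chain, was found in 75.9% of the 58 and in 4.05% of other T cells, Tcrg-C1 in 72.4% and 3.67%, and Cd163l1 in 60.3% and 0.638%, whereas Cd8a was in 5.17% and 37.1% and Cd4 in 1.72% and 17.5%. Trac, the constant region of the α chain, was still found in 43.1% of the 58, against 70.7% of other T cells. The 373 T cells with any of those first 3 genes (7.36% of T cells) held 92 of the 106 Blk UMIs. In those cells Blk was 102, 420, 162, 83.8 and 52.1 CPM in B6→B6 mice and 94.6, 10.8 and 0 CPM in HLA→B6 mice. These levels rest on 3, 45, 15, 11 and 1 UMIs and on 15, 2 and 0 UMIs, and the groups were not tested there. B6→B6 mouse 2 was the highest within these cells too, and they made up 14.1% of its T cells and 4.01% to 11.7% of those of the other mice.

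Ebf1 in structural cells was 31.4, 23.1, 69.8, 37.9 and 92.4 CPM in B6→B6 mice and 38.7, 23.3 and 18.9 CPM in HLA→B6 mice, with overlapping groups. The log2 fold change was -1.04 (SE 0.64, edgeR adjusted p = 0.774), it was -0.42 without B6→B6 mouse 5, and 0.604% of 8109 genes were called there by edgeR and 1.16% by DESeq2. The highest level, 485 CPM, was in the cluster of 31 cells that carries a B cell label, in which Cd79a was found in 100% of cells. Without those cells Ebf1 was 31.4, 16.0, 53.3, 33.6 and 44.5 CPM in B6→B6 mice and 36.0, 19.0 and 14.3 CPM in HLA→B6 mice, still with overlapping groups (exact permutation p = 0.286). The next cluster was that labelled fibroblasts and smooth muscle cells, in which EBF1 is known to be expressed, with 123 CPM from 85 UMIs and 14.5% of 345 cells. Cd79a there was at 26.1 CPM. In B cells, for comparison, Ebf1 was at 1432 CPM and Cd79a at 3226 CPM on average.

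**Figure D5:**
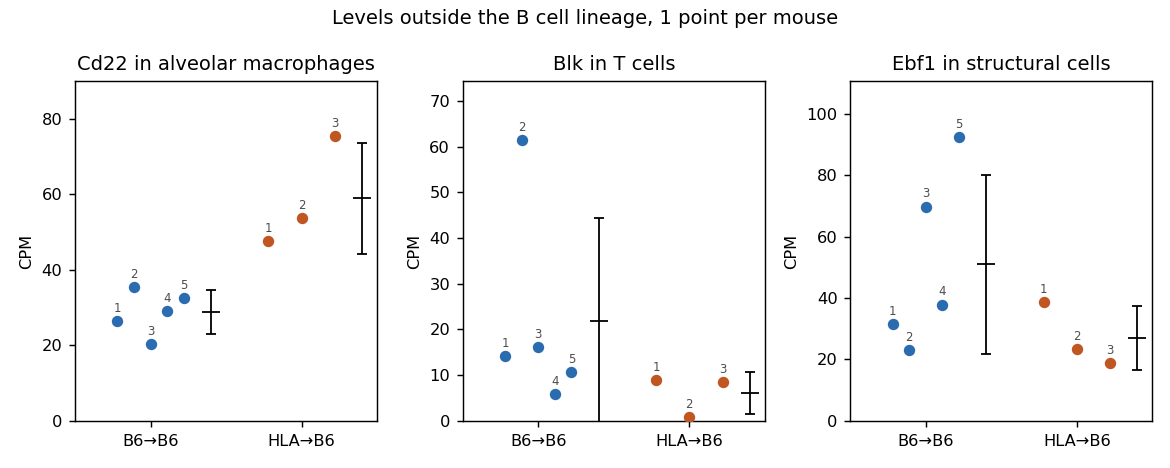
CPM of Cd22 in AMs, Blk in T cells and Ebf1 in structural cells, 1 point for each mouse, for B6→B6 (n = 5) and HLA→B6 (n = 3), with bars for the mean and SD. The structural cells include the 31 cells labelled B cells. Cd22 lies at 20.3 to 35.5 CPM in B6→B6 and at 47.6 to 75.5 CPM in HLA→B6 without overlap, and the other panels overlap, with Blk at 61.5 CPM in B6→B6 mouse 2.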

How the data were processed

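Single cells of 8 left lung grafts were sequenced by droplet 3′ RNA-seq after 10000 cells were loaded for each. According to the study's methods the authors ran Cell Ranger on mm10, dropped barcodes under 200 UMIs and genes in fewer than 3 cells, applied SoupX for ambient RNA and annotated Seurat clusters with clustifyr. They deposited whole-number UMI counts per gene and cell and a table of cells with types and B cell clusters. No source used here says whether the counts precede SoupX. All deposited columns of values were used.

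Counts were summed by mouse and annotated population (at least 10 cells) and tested with edgeR 4.0.16 in R 4.3.3 (TMM, filterByExpr with a minimum count of 10, quasi-likelihood, Benjamini-Hochberg over all genes tested, threshold 0.05), with DESeq2 1.42.0, other scalings, filters, blocks and left-out mice as alternatives. Exact permutation tests used scipy 1.17.1 on log2(CPM + 1). Shares were computed for cells thinned to 1000 UMIs, leaving out shallower cells (Python 3.11.15, numpy 2.4.6, pandas 2.3.3). Scrublet in scanpy 1.11.5 marked 258 cells (1.24%) as doublets, 24 of them B cells, which were kept and left out only as an alternative. On simulated counts with 200 genes changed 4-fold, 87.5% were called in the B cell comparison, 88.5% in cluster 0 and 69.5% in cluster 1. Smaller changes were not simulated. Among the genes followed, the log2 fold change largest in size was -0.43 in B cells (Fcer2a). In cluster 0 it was -0.35 (Blk). The simulated shares do not show whether changes of that size would be called.

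The 9 genes, the marker lists and 5 wider lists (receptor signalling, inhibitory receptors and phosphatases, transcription factors, follicular and marginal zone genes, immunoglobulin chains) were chosen with earlier results of these data known. All 9 genes are named, with the 2 highest genes of each list, called list genes and the nearest genes by correlation, except that some genes of the lists are not reported here. Ighd and Klf2 in the clusters, and the γδ T cell and AM genes, were named after their values were seen. Gene positions come from GENCODE vM21, which held 17724 of the names (98.9%). HLA→B6 mice carry the numbers of the table of cells. The sources do not say that mice were housed or processed apart, so p-values measure the spread between these libraries.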

Additional observations from a re-analysis of the deposited data

Results flagged for a closer look

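Blk in T cells of B6→B6 mouse 2 stood at 61.5 CPM, while the other 4 B6→B6 mice lay between 5.94 and 16.3 CPM. Its gap to the nearest mouse was 0.814 of the range of the group, above Dixon's 95% critical value of 0.710 for 5 samples. It was the only 1 of 21 groups tested to stand apart in this way, which chance does in about 1 in 20 groups.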

How the results depend on the processing

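The condition in B cells gave 7 calls, against 2 with DESeq2, 73 with no filter on low counts, 27 with a replicate block, 0 with immunoglobulin genes left out and 0 to 16 with 1 mouse left out (0 without B6→B6 mouse 1 or HLA→B6 mouse 1, 16 without HLA→B6 mouse 3). Cluster 0 gave 0 calls, against 1 with DESeq2, 20 with no filter, 11 with the replicate block, 1 with a block for libraries that share barcodes and 0 to 3 with 1 mouse left out. Cluster 1 gave 0 calls, against 3 with DESeq2, 5 without doublets, 3 without shared barcodes, 27 with the block for shared barcodes, 3 without immunoglobulin genes and 0 to 69 with 1 mouse left out (69 without B6→B6 mouse 3). None of the 9 genes was among any of these calls except Ms4a1 in cluster 1 (-1.35 without HLA→B6 mouse 1, -1.37 with the block for shared barcodes, both fits resting on B6→B6 mice 2 and 3 against HLA→B6 mouse 2). Cd22 in AMs fell below the threshold with the replicate block (1.28) and without HLA→B6 mouse 2, with 1.07 to 1.38 over the mice left out. The causes were not tested. Estimates near 0 changed sign. With 1 mouse left out, Pax5 ran from -0.33 to 0.0088, Cd22 from -0.048 to 0.21 and Ebf1 from -0.18 to 0.18 in B cells, Pax5 from -0.19 to 0.058 and Cr2 from -0.26 to 0.11 in cluster 0, and Cd22 from -0.87 to 0.065 in cluster 1. With the replicate block Cd22 was -0.15 in B cells and -0.075 in cluster 0, and with the block for shared barcodes Ebf1 was -0.022 in B cells. Of 505 estimates for single genes, 489 kept their direction and side of the threshold. All 9 genes stayed highest in B cells and 7 stayed lower in cluster 1 under every alternative run. The labels were drawn from the same counts, so this describes them and is no test. The 4 genes without a UMI in cells labelled PCs stayed so, which leaving out cells or mice could not change. No alternative took cluster 2 as the PCs. Replicate numbers do not pair the mice: the correlations of same-numbered mice in B cells were 0.0125, 0.164 and -0.179. The replicate block could not be fitted in cluster 1. Blk in T cells gave no value without B6→B6 mouse 1, 2 or 3, since it then failed the filter. Depth limits Cr2, Pax5 and Fcer2a in cluster 1 and every comparison of PCs.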
